A study of Mus musculus with 12 samples.

Results

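The 10 genes described here handle iron and heme in macrophages: Cd163, Slc48a1, Hmox1, Blvra, Blvrb, Slc40a1, Fth1, Ftl1, Tfrc and Slc11a1. They were taken by symbol from a table of 37775 gene symbols, and all 10 were among the 22118 genes that passed the filter on low counts. Levels were measured by bulk RNA-seq in 12 libraries of FACS-sorted monocyte-macrophage (Mo-Mac) cells from the ear skin of WT BALB/c mice with IgE-mediated chronic allergic inflammation (IgE-CAI). All mice had received 300 µg of anti-TNP IgE intravenously and, on the next day, 10 µg of TNP-conjugated OVA intradermally in the ear. Cells were sorted on day 5 after that challenge. CD45+CD11b+SiglecF-Ly6G- cells were divided by surface Ly6C and PD-L2 into Ly6ChiPD-L2lo cells (Classical mono, classical monocytes), Ly6ChiPD-L2hi cells (Early CMDM, early classical monocyte-derived macrophages), Ly6CloPD-L2hi cells (Late CMDM) and Ly6CloPD-L2lo cells (Resident-like macrophages), with 3 libraries per fraction. Each library was made from 5000 to 80000 cells with an oligo(dT) capture. Ly6C and PD-L2 defined the gates, and no member encodes either of them.

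Macrophages are the main cells that recycle iron. Haemoglobin released from red blood cells is bound by haptoglobin and taken up through CD163. Heme leaves the lysosome through HRG1 (the product of Slc48a1), and heme oxygenase 1 opens the heme ring to release iron, carbon monoxide and biliverdin, which biliverdin reductases convert to bilirubin. Iron that is not used is stored in ferritin, a shell of heavy (Fth1) and light (Ftl1) chains, or leaves the cell through ferroportin (Slc40a1). Transferrin-bound iron enters through the transferrin receptor (Tfrc) and NRAMP1 (Slc11a1) moves divalent metal out of the phagosome.

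A part of this control is written in the transcripts. An iron-responsive element (IRE) is a short stem with a CAGTGN loop and a bulged C, bound by the iron regulatory proteins when iron is scarce. This blocks translation from a 5′ UTR and protects the mRNA from decay when the element lies in a 3′ UTR. The elements of the members are shown because they divide the genes by role: storage and export carry it before the coding sequence, uptake of transferrin-bound iron carries it after. In a search of the GENCODE M21 coding transcripts (GRCm38) on the transcript strand, a match was a C, 5 bases, CAGTG and 6 bases, with 5 paired bases around the loop and at least 3 pairs below the bulge. A match was found in 4 of the 10 members. In the longest coding transcript of each gene, 18 of 21842 protein-coding genes (0.0824%) had one. Each stretch is 29 bases long, written 5′ to 3′ in DNA letters, with the first bases of the loop in capitals.
Slc40a1, 5′ UTR, chr1:45925465-45925493, minus strand: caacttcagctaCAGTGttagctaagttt
Fth1, 5′ UTR, chr19:9982732-9982760, plus strand: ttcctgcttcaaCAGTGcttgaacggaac
Ftl1, 5′ UTR, chr7:45459779-45459807, minus strand: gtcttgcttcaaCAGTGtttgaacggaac
Tfrc, 3′ UTR, chr16:32631219-32631247, plus strand: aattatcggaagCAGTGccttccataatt
Tfrc, 3′ UTR, chr16:32631598-32631626, plus strand: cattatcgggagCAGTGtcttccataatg
Tfrc, 3′ UTR, chr16:32631663-32631691, plus strand: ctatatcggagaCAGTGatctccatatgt
Tfrc, 3′ UTR, chr16:32631710-32631738, plus strand: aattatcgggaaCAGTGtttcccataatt
The counts below measure mRNA and not protein, so that control of translation through the 5′ UTR elements is outside what they show.

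The libraries held between 12537178 and 19844113 counts. Nothing in the labels or methods says whether the 3 libraries of a fraction came from separate mice, so that p-values measure the spread between these libraries, which may be technical. The Early CMDM libraries stood apart. The summed level of 6 keratinocyte genes (Krt5, Krt14, Krt1, Krt10, Krt15 and Dsp, none at 0) was 17068 to 27240.5 CPM (counts scaled to the same library size) in Early CMDM and 1868 to 4044 CPM in the other 9 libraries. A list of 10 pan-leukocyte genes, used below as another scale, summed to 1556 to 2589 CPM in Early CMDM and to 3493 to 5998 CPM elsewhere. The 8 monocyte and macrophage markers were detected in every fraction, with summed means of 7260 ± 1053 CPM (SD, n = 3) in Classical mono, 2681 ± 454 in Early CMDM, 5963 ± 469 in Late CMDM and 8856 ± 538 in Resident-like. Lyz2 made up most of the difference between the first 2 sums (5802 CPM in Classical mono and 1761 CPM in Early CMDM). Ly6c2, which encodes Ly6C, stood at 491 and 49.2 CPM, Fcgr1 at 87.8 and 50.2 CPM, and Cd68 at 379 and 311 CPM. Adgre1 stood at 84.6 and 86.6 CPM, Csf1r at 395 and 391 CPM, Mertk at 6.84 and 11.6 CPM, and Pdcd1lg2 at 14.1 and 21.3 CPM. Of the 8 markers, 3 were called lower and 1 higher in Early CMDM than in Classical mono, with a median log2 fold change of -0.15. The summed means of 6 fibroblast genes were 4519, 3787, 484 and 321 CPM in Classical mono, Early CMDM, Late CMDM and Resident-like, and all 6 were lower in Late CMDM than in either Classical mono or Early CMDM. Those of 6 T cell genes were 196 CPM in Classical mono and 25.5 to 51.6 CPM in the other fractions. Scaling to the leukocyte genes in place of TMM (edgeR's trimmed mean of M values) gave a median log2 fold change of all genes of 1.58 in Early CMDM over Classical mono and -0.96 in Late over Early CMDM, against -0.01 and 0.02 with TMM. Directions of single genes therefore depend on the scale, most of all in comparisons with Early CMDM. In such bulk samples, fewer cells of a type and less RNA per cell cannot be told apart. The part of keratinocyte, fibroblast or T cell RNA in any difference below was not tested.

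**Figure D1:**
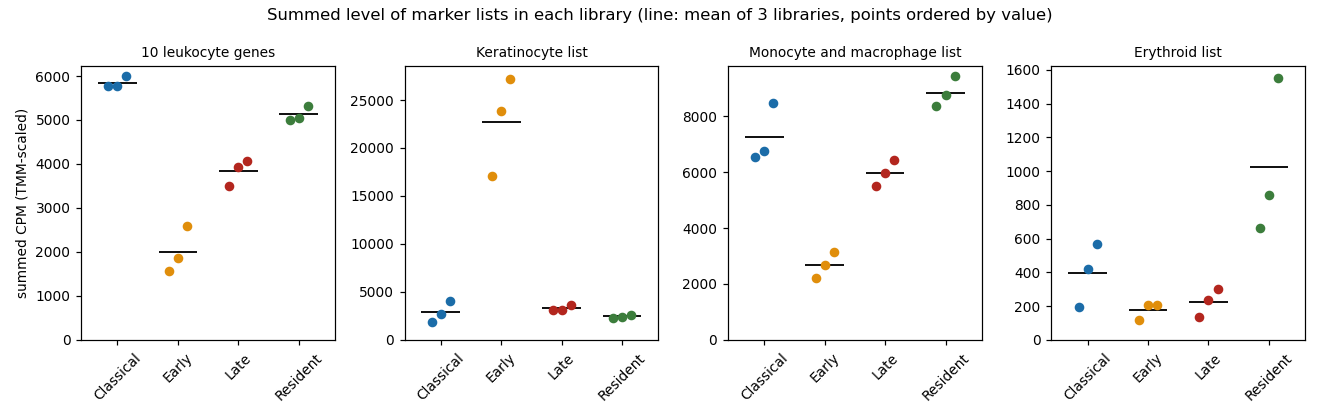
Summed CPM (vertical axes, starting at 0) of the 10 leukocyte genes and of the keratinocyte, monocyte and macrophage, and erythroid marker lists, with 1 point per library, lines at the means of 3 libraries, and the fractions in the order Classical mono, Early CMDM, Late CMDM and Resident-like. The Early CMDM libraries have the highest keratinocyte sums (17068 to 27240.5 CPM) and the lowest leukocyte sums (1556 to 2589 CPM), and the Resident-like libraries have the highest erythroid sums (663 to 1549 CPM).

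By fraction mean with TMM, 7 of the 10 members were at their highest in Late CMDM, though Slc48a1 and Slc40a1 did so without a clear margin. On the leukocyte scale Slc48a1, Blvra, Blvrb and Slc40a1 were lower in Late than in Early CMDM (-0.34, -0.089, -0.095 and -0.90), only Slc40a1 with a call. The share of all genes with their highest mean in Late CMDM was not counted. Between Late and Early CMDM, 9 members rose, none fell and Slc40a1 was not called, where 31.9% of all genes were called (14.4% higher, 17.5% lower; edgeR quasi-likelihood test, Benjamini-Hochberg adjusted p under 0.05). Between Late CMDM and Classical mono all 10 members were called, 8 higher and 2 lower (Fth1 and Slc11a1), against 35.6% of all genes (18.1% higher, 17.5% lower). Between Early CMDM and Classical mono 5 members rose (Cd163, Slc48a1, Blvrb, Slc40a1 and Tfrc) and 3 fell (Fth1, Ftl1 and Slc11a1), against a background of 44.9% (24.2% higher, 20.6% lower). The median log2 fold change of the members was 0.87 in Late over Early CMDM, 1.30 in Late CMDM over Classical mono and 0.28 in Early CMDM over Classical mono, and the medians of all genes tested were 0.02, -0.01 and -0.01.

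Resident-like macrophages held a part of these levels. Against Late CMDM, 5 members were lower (Cd163, Hmox1, Blvrb, Slc40a1 and Tfrc), 5 were not called and none was higher, where 28.1% of all genes were called (12.7% higher, 15.5% lower). Against Classical mono, 7 members were higher and 1 was lower (Slc11a1), where 23.7% were called (10.8% higher, 12.9% lower). Against Early CMDM, 7 were higher and 2 were lower (Cd163 and Slc40a1), where 46.6% were called (21.4% higher, 25.1% lower). The median log2 fold changes of the members in these 3 comparisons were -0.36, 0.78 and 0.56, and those of all genes were 0.00, 0.00 and 0.03. The 6 comparisons share libraries and are not independent of each other. On the leukocyte scale the numbers of members higher and lower became 9 and 0 in Early CMDM over Classical mono (88.5 and 2.43% of all genes), 2 and 1 in Late over Early CMDM (0.615 and 72.6%), and 8 and 0 in Late CMDM over Classical mono (48.5 and 5.84%). For Resident-like they became 0 and 6 against Late CMDM (3.4 and 31.1% of all genes), 8 and 0 against Classical mono (10.7 and 7.11%), and 0 and 8 against Early CMDM (1.77 and 85.4%).

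**Figure D2:**
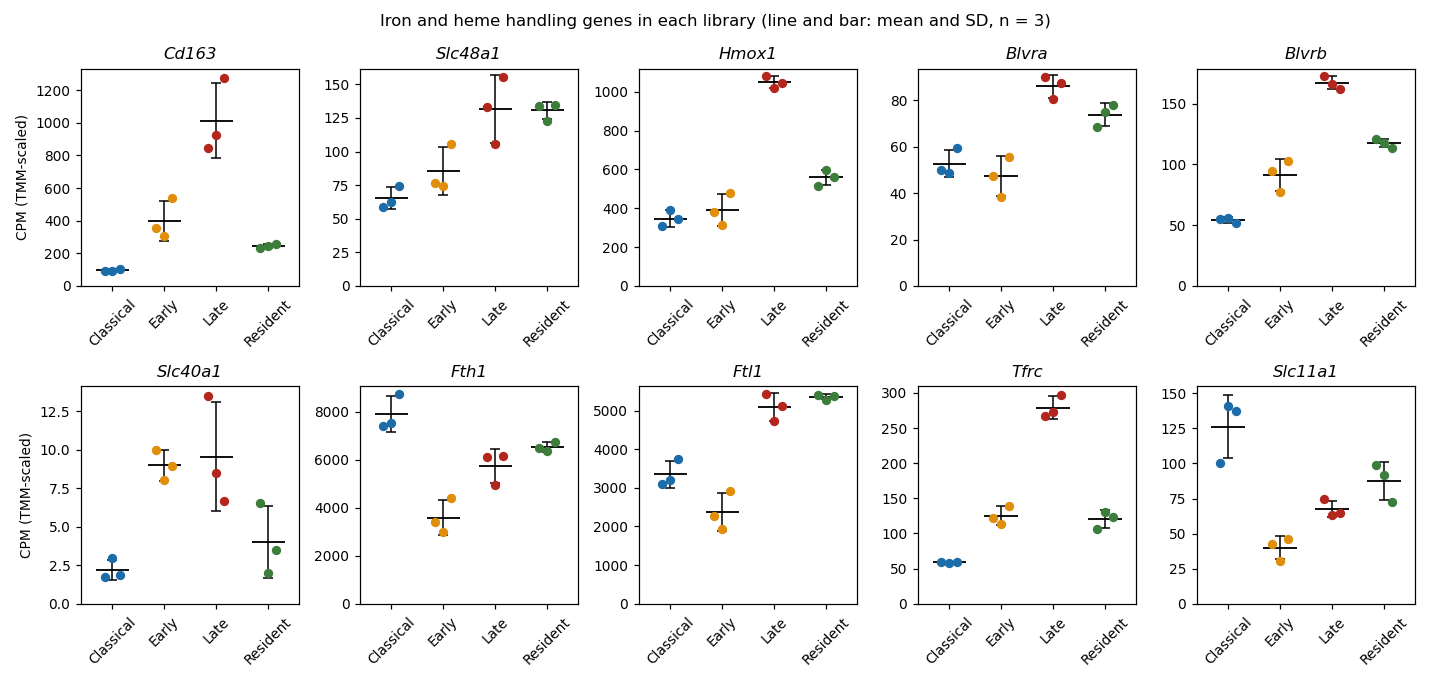
CPM after TMM scaling (vertical axes, starting at 0) of each of the 10 members, with 1 point per library, a horizontal line at the mean and a bar of 1 SD (n = 3), for Classical mono, Early CMDM, Late CMDM and Resident-like. Hmox1, Blvrb, Tfrc and Cd163 peak in Late CMDM with no overlap with the other fractions, Fth1 and Slc11a1 are highest in Classical mono, and Slc40a1 stays at or under 13.5 CPM in every library.

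Cd163 encodes the scavenger receptor for haptoglobin-haemoglobin complexes (chr6:124304656-124330527, plus strand, 17 exons in its longest coding transcript). Its levels were 90.8, 93.5 and 106 CPM in Classical mono, 353, 308 and 537 CPM in Early CMDM, 843, 923 and 1274 CPM in Late CMDM, and 235, 242 and 259 CPM in Resident-like. No fraction overlapped another, and the order Classical mono, Resident-like, Early CMDM, Late CMDM held between all libraries. Cd163 was 10.5-fold higher in Late CMDM than in Classical mono (log2 fold change 3.39 ± 0.20 SE, adjusted p = 7.38e-09), the widest difference of any member in any of the 6 comparisons. The first step, from Classical mono to Early CMDM, was 4.13-fold (log2 2.05 ± 0.19, adjusted p = 4.46e-07), and the next, to Late CMDM, was 2.54-fold (log2 1.34 ± 0.19, adjusted p = 5.12e-05). In Resident-like macrophages it was lower than in Late CMDM by -2.05 ± 0.19 on the log2 scale (adjusted p = 1.38e-06) and still 2.54-fold higher than in Classical mono. On the leukocyte scale Cd163 kept its direction and its call in all 6 comparisons, with 0.41 (adjusted p = 0.0443) in Late over Early CMDM as its smallest value.

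Slc48a1 (HRG1, the lysosomal heme transporter; chr15:97778520-97792692, plus strand, 3 exons, overlapping Hdac7 on the other strand) changed less. Levels were 59.0, 62.2 and 74.4 CPM in Classical mono, 76.5, 74.4 and 106 CPM in Early CMDM, 133, 105 and 156 CPM in Late CMDM, and 134, 123 and 134 CPM in Resident-like. Classical mono lay below the other fractions in every library, but its highest library (74.36 CPM) all but met the lowest of Early CMDM (74.37 CPM), and Late CMDM overlapped both Early CMDM and Resident-like. It was 2.02-fold higher in Late CMDM than in Classical mono (log2 1.01 ± 0.15, adjusted p = 8.27e-05) and 2.003-fold higher in Resident-like than in Classical mono (log2 1.00 ± 0.15, adjusted p = 0.000131). The difference between Late CMDM and Resident-like was -0.01 on the log2 scale, with a 95% interval from -0.33 to 0.31. The rise from Classical mono to Early CMDM (log2 0.39 ± 0.15, adjusted p = 0.0474) lost its call when any of 7 libraries was left out, down to 0.22 (adjusted p = 0.246) without the third Early CMDM library, and with DESeq2 (adjusted p = 0.0532).

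Hmox1 encodes heme oxygenase 1, the inducible enzyme that breaks down heme (chr8:75093621-75100589, plus strand, 5 exons). It stood at 306, 392 and 343 CPM in Classical mono and at 382, 315 and 479 CPM in Early CMDM, and these ranges overlapped. In Late CMDM it stood at 1081, 1021 and 1045 CPM, and in Resident-like at 517, 597 and 563 CPM. The Late CMDM libraries were the closest to each other of any fraction and lay well above every other library. Hmox1 was not called between Classical mono and Early CMDM (log2 0.18, 95% interval -0.11 to 0.46, adjusted p = 0.315). It rose 2.68-fold from Early to Late CMDM (log2 1.42 ± 0.14, adjusted p = 1.32e-06). It was lower in Resident-like than in Late CMDM by -0.91 ± 0.14 (adjusted p = 0.000119) and 1.61-fold higher than in Classical mono (adjusted p = 0.00128). On the leukocyte scale Hmox1 was higher in Early CMDM than in Classical mono by 1.74 and the rise from Early to Late CMDM was 0.47 (adjusted p = 0.0193).

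Blvra and Blvrb encode the biliverdin reductases A and B, of which A acts on the biliverdin that heme oxygenase makes and B also reduces flavins. Blvra (chr2:127070665-127097084, plus strand, 8 exons) was at 49.97, 48.7 and 59.4 CPM in Classical mono, 47.5, 38.4 and 55.8 CPM in Early CMDM, 90.3, 80.7 and 87.7 CPM in Late CMDM, and 68.4, 75.1 and 78.2 CPM in Resident-like. Its pattern was that of Hmox1 in the first steps, with overlapping values in Classical mono and Early CMDM (log2 -0.16, 95% interval -0.42 to 0.11) and a 1.82-fold rise in Late CMDM (log2 0.87 ± 0.13, adjusted p = 5.89e-05). It was not called between Resident-like and Late CMDM (log2 -0.22, interval -0.48 to 0.04) although the libraries did not overlap. With library sizes only Blvra was called lower in that comparison (-0.36, adjusted p = 0.032). Its higher value in Resident-like than in Classical mono (log2 0.49, adjusted p = 0.00825) then lost its call (0.32, adjusted p = 0.0597).

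Blvrb (chr7:27447978-27466144, plus strand, 5 exons) was at 55.3, 55.8 and 51.3 CPM in Classical mono, 94.7, 77.0 and 103 CPM in Early CMDM, 173, 166 and 162 CPM in Late CMDM, and 121, 118 and 114 CPM in Resident-like. The 4 fractions did not overlap. It rose 1.69-fold from Classical mono to Early CMDM (log2 0.76 ± 0.10, adjusted p = 1.67e-05), rose 1.83-fold from Early to Late CMDM (log2 0.87 ± 0.10, adjusted p = 8.18e-06), and was lower by -0.51 ± 0.10 in Resident-like than in Late CMDM (adjusted p = 0.00138). Its higher value in Resident-like than in Early CMDM (0.36 ± 0.10, adjusted p = 0.00847) lost its call without the second Early CMDM library (adjusted p = 0.0554) and with TMM factors recomputed without the called genes (DEGES, adjusted p = 0.0539) or library sizes only (adjusted p = 0.131). From Early to Late CMDM both reductases turned to -0.09 on the leukocyte scale (adjusted p = 0.669 for Blvra and 0.639 for Blvrb).

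The promoters of the 2 reductases are shown because the genes shared the rise to Late CMDM and differed in the step before. They come from the RefSeq windows of GRCm38.p6, which matched 7 of the 10 members with 10 windows, and are the 250 bases before the start site. In Blvra the capitals mark the core of the antioxidant response element bound by NRF2 (letters TGACNNNGC, here on the other strand), which 12.4% of the 32851 windows of 300 bases held on either strand. In Blvrb they mark a palindrome of the type bound by STAT6, the factor downstream of the IL-4 receptor (TTC and GAA with 4 bases between them), which 6.95% of the windows held.
Blvra, chr2:127070407-127070656, plus strand: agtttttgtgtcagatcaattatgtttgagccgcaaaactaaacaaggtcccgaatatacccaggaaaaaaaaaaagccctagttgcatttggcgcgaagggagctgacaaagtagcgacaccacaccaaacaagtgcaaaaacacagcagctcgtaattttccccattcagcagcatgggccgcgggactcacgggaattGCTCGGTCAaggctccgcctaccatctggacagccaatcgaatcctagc
Blvrb, chr7:27447728-27447977, plus strand: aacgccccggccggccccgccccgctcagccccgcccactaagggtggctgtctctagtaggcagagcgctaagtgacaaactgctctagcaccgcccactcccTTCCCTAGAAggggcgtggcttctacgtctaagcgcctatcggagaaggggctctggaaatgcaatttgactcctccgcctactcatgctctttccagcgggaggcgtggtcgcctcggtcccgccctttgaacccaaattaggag
Of the other members with a window (Cd163, Fth1, Ftl1, Tfrc and Slc11a1), none held either motif, and no member window held the E-box CACGTG (7.15% of all windows) or the PU.1 core GAGGAAG (13.6%). The TATA box TATAAA (13.6% of all windows) was found for Fth1 and Ftl1, and the GC box GGGCGG (35.7%) for Blvrb, Fth1, Ftl1 and Tfrc. Neither of the marked stretches overlapped another motif. A further Blvrb window (chr7:27452168-27452467) held none of these motifs, and the GC boxes of the printed Blvrb stretch are not marked. These matches of letters say nothing of binding, and a link to the mRNA levels was not tested.

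Slc40a1 encodes ferroportin, the iron exporter (chr1:45908068-45926523, minus strand, 8 exons), and was the member with the fewest counts. The counts were 28, 54 and 34 in Classical mono, 162, 127 and 142 in Early CMDM, 170, 140 and 99 in Late CMDM, and 122, 33 and 59 in Resident-like. They corresponded to 1.72, 2.97 and 1.89 CPM, 10.0, 8.02 and 8.98 CPM, 13.5, 8.50 and 6.67 CPM, and 6.57, 1.999 and 3.47 CPM. Both CMDM fractions lay above all Classical mono libraries, Early and Late CMDM overlapped, and the first Resident-like library stood above the other 2 of its fraction. Slc40a1 was 4.07-fold higher in Early CMDM than in Classical mono (log2 2.03 ± 0.37, adjusted p = 0.000485), and between Late and Early CMDM the difference was 0.08 with a 95% interval from -0.63 to 0.78. It was lower in Resident-like than in Late CMDM by -1.23 ± 0.35 (adjusted p = 0.0171). This call was lost without the first Late CMDM library (-0.91, adjusted p = 0.0792) or the third Resident-like library (-1.13, adjusted p = 0.059), with no filter on low counts (adjusted p = 0.0858) and in the fit of 6 libraries (adjusted p = 0.0874). Without the second Resident-like library the lower value in Resident-like than in Early CMDM (-1.15 ± 0.35, adjusted p = 0.0143) lost its call (adjusted p = 0.0562), and the higher value than in Classical mono (0.88 ± 0.39, adjusted p = 0.135) gained one (1.203, adjusted p = 0.0233). On the leukocyte scale the value between Late and Early CMDM turned to -0.90 (adjusted p = 0.0205).

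Fth1 and Ftl1, the heavy chain that oxidises iron and the light chain that helps to nucleate the core, were the most abundant members per length. Fth1 (chr19:9980598-9985098, plus strand, 5 exons) stood at 7408, 7529 and 8758 CPM in Classical mono, 3403, 2989 and 4387 CPM in Early CMDM, 6124, 4929 and 6150.3 CPM in Late CMDM, and 6501, 6352 and 6755 CPM in Resident-like. All Classical mono libraries were above, and all Early CMDM libraries below, those of the other fractions. Fth1 was lower in Early CMDM than in Classical mono by -1.14 ± 0.14 on the log2 scale (adjusted p = 7.22e-06) and rose 1.60-fold from Early to Late CMDM (log2 0.67 ± 0.14, adjusted p = 0.00161). It was still lower in Late CMDM than in Classical mono by -0.46 ± 0.14 (adjusted p = 0.018). This value turned to 0.14 on the leukocyte scale (adjusted p = 0.533). The call was also lost without the third Classical mono library (-0.38, adjusted p = 0.0548) or the second Late CMDM library (-0.36, adjusted p = 0.109).

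Ftl1 (chr7:45457944-45459884, minus strand, 4 exons, overlapping Gm22133 on its own strand and Gm10252 on the other) stood at 3096, 3215 and 3746 CPM in Classical mono, 2272, 1939.8 and 2907 CPM in Early CMDM, 5431, 4717 and 5113 CPM in Late CMDM, and 5410.2, 5278 and 5387 CPM in Resident-like. Early CMDM was again lowest without overlap, but here Classical mono lay below Late CMDM and Resident-like. Ftl1 fell by -0.50 ± 0.14 from Classical mono to Early CMDM (adjusted p = 0.00707), rose 2.14-fold from Early to Late CMDM (log2 1.10 ± 0.14, adjusted p = 1.49e-05) and was 1.52-fold higher in Late CMDM than in Classical mono (log2 0.60 ± 0.14, adjusted p = 0.00253). Neither ferritin gene was called between Resident-like and Late CMDM (Fth1 0.19, interval -0.11 to 0.49; Ftl1 0.08, interval -0.21 to 0.36). The fall to Early CMDM turned to a rise on the leukocyte scale for both, with 0.43 (adjusted p = 0.0353) for Fth1 and 1.06 (adjusted p = 1.50e-06) for Ftl1, as it did for Blvra with 1.41.

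The table also lists copies of ferritin genes. The symbols Ftl1-ps1, Ftl1-ps2 and Ftl2-ps together had 47.0 to 49.5 counts per 100 counts of Ftl1 in the 12 libraries, and their annotated transcripts were 97.8 to 99.6% identical to the longest Ftl1 transcript over the aligned bases. Reads of Ftl1 and of these copies could therefore be split by the counting, and the level of Ftl1 is uncertain by that share. The ratio varied little between libraries, and with the copies added Ftl1 kept its direction in all 6 comparisons and its call in the 5 that had one (1.09 in Late over Early CMDM, -0.50 in Early CMDM over Classical mono). Copies of Fth1 had 8 to 37 counts per library, or at most 0.0345 per 100 counts of Fth1.

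Tfrc encodes the transferrin receptor, whose 4 matched elements are shown above (chr16:32608920-32632794, plus strand, 19 exons). It stood at 59.2, 58.4 and 60.1 CPM in Classical mono, 123, 114 and 139.8 CPM in Early CMDM, 267, 272 and 297 CPM in Late CMDM, and 107, 131 and 123 CPM in Resident-like. Classical mono was lowest and Late CMDM highest without overlap, and Early CMDM and Resident-like overlapped. The steps were 2.12-fold from Classical mono to Early CMDM (log2 1.08 ± 0.10, adjusted p = 4.08e-07) and 2.23-fold from Early to Late CMDM (log2 1.15 ± 0.10, adjusted p = 6.48e-07), in all 4.71-fold (log2 2.24 ± 0.11, adjusted p = 3.84e-10). It was lower in Resident-like than in Late CMDM by -1.21 ± 0.10 (adjusted p = 3.57e-07), and Resident-like and Early CMDM differed by -0.06 with an interval from -0.28 to 0.16. On the leukocyte scale Tfrc was 2.67 higher in Early CMDM than in Classical mono, and the value between Late and Early CMDM was 0.18 (adjusted p = 0.361).

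Slc11a1 (NRAMP1; chr1:74375195-74386062, plus strand, 15 exons) had another pattern. It stood at 100.2, 141 and 138 CPM in Classical mono, 42.9, 30.5 and 46.4 CPM in Early CMDM, 74.4, 63.2 and 65.0 CPM in Late CMDM, and 98.7, 91.6 and 72.4 CPM in Resident-like. Classical mono was highest and Early CMDM lowest without overlap, though the first Classical mono library nearly met the first Resident-like library, and Late CMDM and Resident-like overlapped. Slc11a1 was lower in Early CMDM than in Classical mono by -1.66 ± 0.17 (adjusted p = 8.84e-07), which became -0.09 (adjusted p = 0.634) on the leukocyte scale. It was lower in Late CMDM than in Classical mono by -0.90 ± 0.16 (adjusted p = 0.00045), which became -0.29 (adjusted p = 0.192). It rose 1.69-fold from Early to Late CMDM (adjusted p = 0.0024) and turned to -0.19 on the leukocyte scale. The difference between Resident-like and Late CMDM was 0.38 (interval 0.03 to 0.72) with an adjusted p of 0.102, and was called in a fit of those 6 libraries alone (0.37, adjusted p = 0.0199). The lower value in Resident-like than in Classical mono (-0.53 ± 0.16, adjusted p = 0.0262) lost its call without library 2 or without library 3 of either fraction, with adjusted p between 0.0569 and 0.126.

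**Figure D3:**
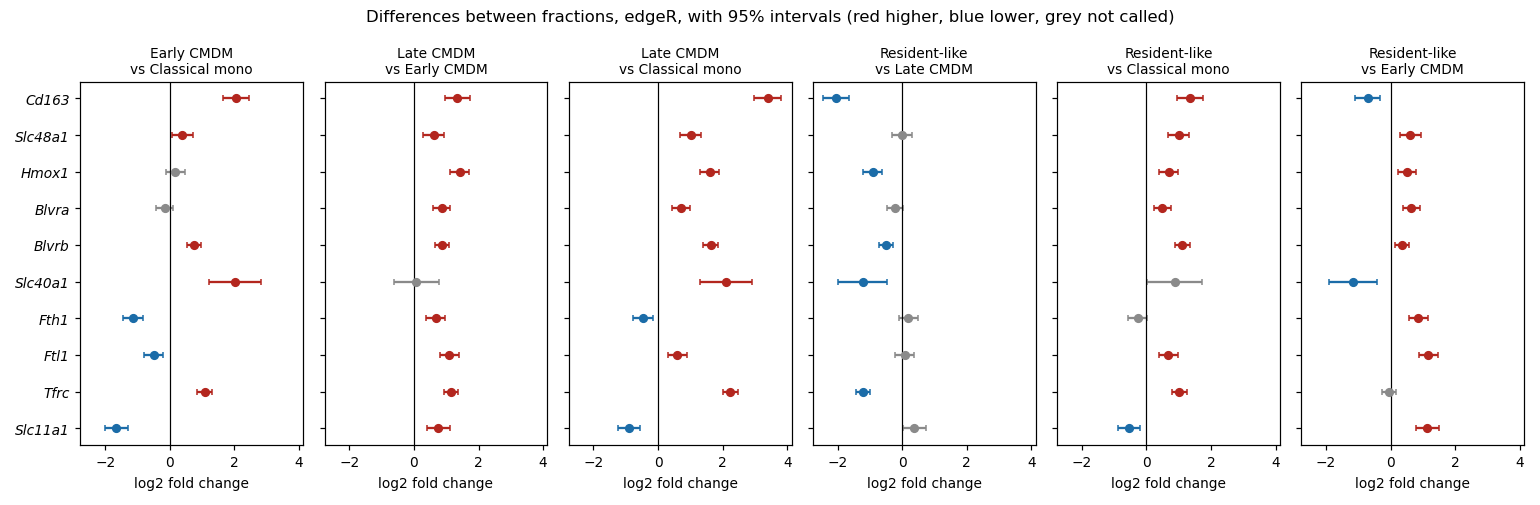
Log2 fold change (horizontal axis) of each member in the 6 comparisons with its 95% interval from the edgeR fit, in red where higher, blue where lower and grey where not called at an adjusted p under 0.05. In Late over Early CMDM 9 of 10 members lie to the right of 0 with a call. In Resident-like against Late CMDM 5 lie to the left with a call and none lies to the right with a call. On the leukocyte scale these counts are 2 higher with 1 lower, and 6 lower.

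The leukocyte scale multiplies all genes of a library by 1 factor, so that by construction it moves all genes of a comparison nearly alike. Under it the median log2 fold changes of all genes were 1.58 in Early CMDM over Classical mono, -0.96 in Late over Early CMDM and 0.60 in Late CMDM over Classical mono. For Resident-like they were -0.42 against Late CMDM, 0.19 against Classical mono and -1.38 against Early CMDM. In the comparisons without Early CMDM, fits on their 6 libraries alone called 8 members higher and 2 lower in Late CMDM over Classical mono and 7 higher and 1 lower in Resident-like over Classical mono, as in the fit of all 12 libraries. Between Resident-like and Late CMDM such a fit called 1 higher and 4 lower, since Slc11a1 gained a call and Slc40a1 lost its own (adjusted p = 0.0874).

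**Figure D4:**
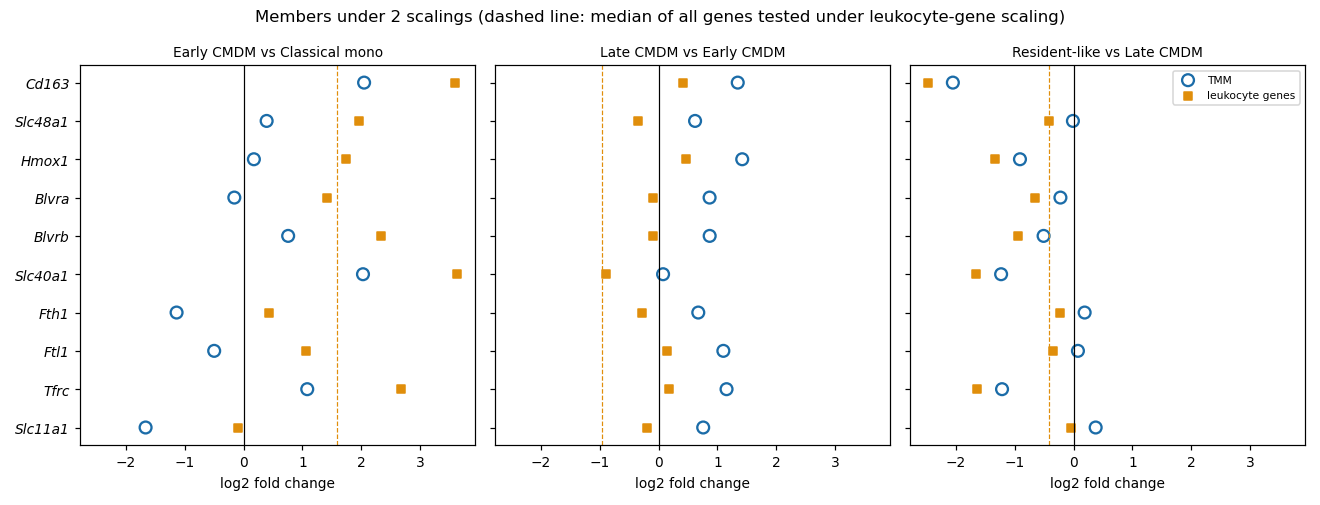
Log2 fold change (horizontal axis) of each member under TMM (open circles) and under leukocyte-gene scaling (squares), for 3 comparisons, with dashed lines at the median of all genes under leukocyte-gene scaling (1.58, -0.96 and -0.42). The squares and circles differ in the sign of Blvra, Fth1 and Ftl1 in Early CMDM over Classical mono, of Slc48a1, Blvra, Blvrb, Slc40a1, Fth1 and Slc11a1 in Late over Early CMDM, and of Fth1, Ftl1 and Slc11a1 in Resident-like against Late CMDM.

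Ratios of counts between members of 1 library do not depend on any scaling between libraries. The ratio of Fth1 to Ftl1 counts was 2.34 to 2.39 in Classical mono, 1.497 to 1.54 in Early CMDM, 1.04 to 1.203 in Late CMDM and 1.202 to 1.25 in Resident-like. Classical mono and Early CMDM stood apart from each other and from both remaining fractions, whose ranges met. The mean log2 ratio fell from 1.24 ± 0.02 (SD, n = 3) in Classical mono to 0.60 ± 0.02 in Early CMDM and 0.17 ± 0.10 in Late CMDM. In Resident-like it was 0.29 ± 0.03. With the Ftl1 copies added to Ftl1 and those of Fth1 to Fth1 the order was the same and the mean log2 ratios were 0.67, 0.04, -0.39 and, in Resident-like, -0.29. The light chain thus took a larger share of ferritin counts in each CMDM fraction and in Resident-like than in Classical mono, with or without the copies.

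The ratio of Blvrb to Blvra counts was 0.863 to 1.15 in Classical mono, 1.84 to 2.002 in Early CMDM, 1.85 to 2.06 in Late CMDM and 1.45 to 1.77 in Resident-like. The first range lay below all others, and the 2 CMDM fractions overlapped. Hmox1 had 6.70 to 9.69 counts per count of Slc48a1 in Late CMDM and 3.85 to 6.31 in the other fractions, so that all 3 Late CMDM libraries stood above the other 9. Slc40a1 to Tfrc, export against uptake, had mean log2 ratios of -4.80 ± 0.44 in Classical mono, -3.80 ± 0.17 in Early CMDM, -4.93 ± 0.59 in Late CMDM and -5.07 ± 1.01 in Resident-like. Early CMDM was above every library of Classical mono and Late CMDM, and the first Resident-like library came close to its lowest value (-4.02 against -3.96). These ratios are descriptions and were not tested.

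**Figure D5:**
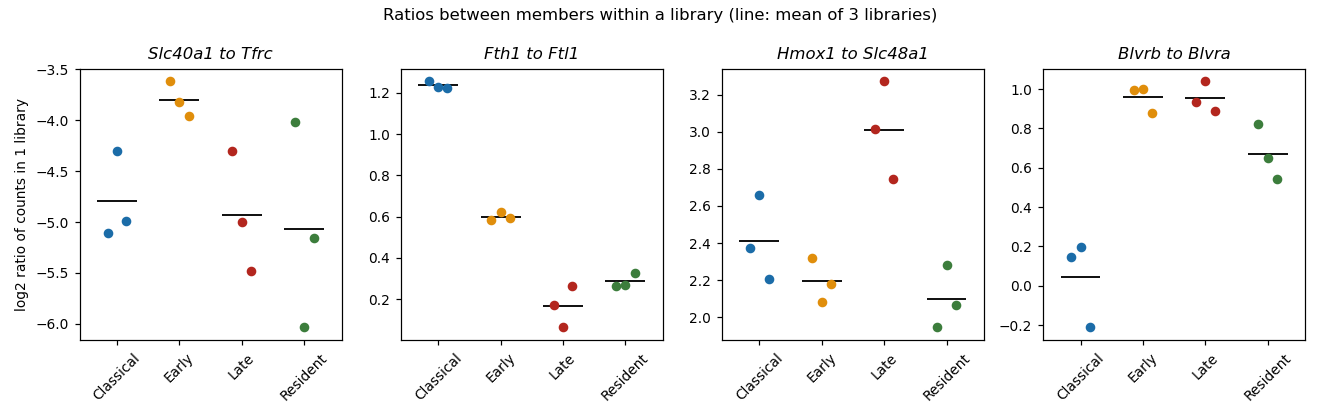
Log2 ratio of the counts of 2 members in the same library (vertical axes, not starting at 0), with 1 point per library and lines at the means of 3 libraries. Fth1 to Ftl1 steps down from 1.24 in Classical mono to 0.60 in Early CMDM and 0.17 in Late CMDM, and is 0.29 in Resident-like. Blvrb to Blvra steps up from 0.04 in Classical mono to 0.96 in Early CMDM. Hmox1 to Slc48a1 is highest in Late CMDM (3.01), and Slc40a1 to Tfrc is highest in Early CMDM (-3.80).

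Per kilobase of the longest coding transcript, ferritin led in every fraction. Fth1 stood at 5287 ± 500.1 CPM per kb and Ftl1 at 3463 ± 357 CPM per kb in Classical mono (SD, n = 3), and in Late CMDM the order was turned, with 3838 ± 467 for Fth1 and 5255 ± 369 for Ftl1. With the median transcript length in place of the longest, Fth1 was first in every fraction, so that the order of the 2 chains depends on the transcript taken. Hmox1 followed them in all 4 fractions under both lengths, at 668 ± 19.4 CPM per kb in Late CMDM and 221 ± 27.6 in Classical mono. Cd163 moved from 21.8 ± 1.78 CPM per kb in Classical mono to 228 ± 51.5 in Late CMDM, where it ranked next after Hmox1 under both lengths. Slc40a1 was last in every fraction, between 0.651 ± 0.200 CPM per kb in Classical mono and 2.84 ± 1.05 in Late CMDM, except that Slc11a1 was below it in Early CMDM with the median length. The 10 members together took 0.606 to 1.45% of all counts of a library, of which the ferritin genes alone took 0.507 to 1.28%.

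The wider iron and heme pathway, 61 further genes in 8 lists of which 55 were tested, was called in both directions. In Early CMDM against Classical mono 15 were higher and 16 lower, in Late against Early CMDM 17 and 4, in Late CMDM against Classical mono 21 and 12, in Resident-like against Late CMDM 8 and 17, against Classical mono 10 and 8, and against Early CMDM 20 and 18. These are 56.4, 38.2, 60, 45.5, 32.7 and 69.1% of the genes tested, where the backgrounds were those given above. On the leukocyte scale the numbers higher and lower were 51 and 2, 0 and 40, 35 and 3, 0 and 29, 9 and 4, and 0 and 51, beside the shares of all genes given above for that scale. With library sizes only, those of the 3 comparisons of Resident-like were 3 and 20, 5 and 14, and 13 and 23, and without the third Late CMDM library the first of them was 3 and 14. Ftmt was not in the table, and Flvcr2, Hpx, Hamp, Hamp2 and Hjv, with at most 24 counts in any library, did not pass the filter.

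Among genes of heme uptake and export, 2 of 6 rose and 2 fell from Classical mono to Early CMDM. Of all genes, 24.2% rose and 20.6% fell. On the leukocyte scale 51 of the 55 wider genes tested were called higher in that comparison and 2 lower (88.5 and 2.43% of all genes). Hp, encoding haptoglobin, the plasma protein that CD163 binds with haemoglobin, was at 122 to 202 CPM in Classical mono, 15.4 to 20.6 CPM in Early CMDM, 7.04 to 8.27 CPM in Late CMDM and 6.84 to 12.2 CPM in Resident-like (log2 -4.33 in Late CMDM over Classical mono, adjusted p = 1.14e-08). Haptoglobin mRNA was thus highest where its receptor's mRNA was lowest. Slc46a1, a transporter of folate and heme, was at 0.799 to 1.92 CPM in Classical mono and 2.02 to 4.21 CPM in Late CMDM (log2 1.27, adjusted p = 0.011).

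Of the 10 genes of iron uptake and reduction, 5 rose from Early to Late CMDM and none fell. Of all genes, 14.4% rose and 17.5% fell. On the leukocyte scale none of the 55 wider genes tested was called higher in that comparison, Lcn2 and Ncoa4 included. Lcn2, encoding lipocalin 2, a binder of siderophores, was at 2.004 to 4.34 CPM in Classical mono, 5.81 to 6.95 CPM in Early CMDM, 16.0 to 18.0 CPM in Late CMDM and 1.24 to 2.41 CPM in Resident-like, with the 2 CMDM fractions above all other libraries (log2 1.40 in Late over Early CMDM, adjusted p = 0.000153). Slc39a8, the metal importer ZIP8, was higher in Early CMDM than in Classical mono by 1.38 (adjusted p = 0.00125) and lower in Resident-like than in Late CMDM by -1.65 (adjusted p = 0.000555). In the list of ferritin turnover, Ncoa4, the receptor that delivers ferritin to the lysosome, was at 49.97 to 63.0 CPM in Classical mono, 64.3 to 76.2 CPM in Early CMDM, 106 to 119.9 CPM in Late CMDM and 53.8 to 63.0 CPM in Resident-like (log2 0.66 in Late over Early CMDM, adjusted p = 0.000173). The iron chaperone gene Pcbp1 was not called between Early CMDM and Classical mono (-0.23) nor between Late and Early CMDM (-0.03). In the list of iron sensing and hepcidin, Heph, the ferroxidase hephaestin that works with ferroportin, was at 0.724 to 1.59 CPM in Classical mono and 6.07 to 7.64 CPM in Early CMDM (log2 2.61, adjusted p = 4.68e-06). Tmprss6, a protease that lowers hepcidin in liver, was at 2.31 to 4.01 CPM in Classical mono and at most 0.606 CPM in any other library.

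Heme synthesis had 3 of 8 genes higher and 1 lower in Early CMDM than in Classical mono, and 1 gene, Cpox, was called between Late and Early CMDM (-0.86, adjusted p = 0.00026). Of all genes, 24.2% were higher and 20.6% lower in the first of these comparisons, and 31.9% were called in the other. Alad, the second enzyme of the pathway, was at 18.9 to 31.3 CPM in Classical mono, 61.1 to 74.2 CPM in Early CMDM, 51.1 to 61.0 CPM in Late CMDM and 20.8 to 24.97 CPM in Resident-like, so that both CMDM fractions lay above both PD-L2lo fractions. Of the 8 genes of mitochondrial iron and iron-sulfur clusters, 2 rose and 4 fell from Classical mono to Early CMDM and none was called between Late and Early CMDM in edgeR at this threshold. The scaffold gene Iscu was lower in Early CMDM than in Classical mono by -0.69 (adjusted p = 5.29e-05), and the transporter gene Abcb10 was higher by 0.78 (adjusted p = 0.00651). Falls in this comparison depend on the scale, since leukocyte-gene scaling called 51 of the 55 wider genes higher and 2 lower (88.5 and 2.43% of all genes).

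The regulators of the heme and iron response had 5 of 7 genes higher and none lower in Late than in Early CMDM. Of all genes, 14.4% were higher and 17.5% lower. On the leukocyte scale no gene of the wider lists was called higher in that comparison, and 40 of 55 were called lower. In Early CMDM against Classical mono 0 of the 7 regulators were higher and 3 lower (24.2 and 20.6% of all genes). In Late CMDM against Classical mono 2 were higher and 1 lower (18.1 and 17.5%), and in Resident-like against Early CMDM 5 were higher and 1 lower (21.4 and 25.1%). Nfe2l2, encoding NRF2, the activator of Hmox1 and of ferritin genes, was at 276 to 348 CPM in Classical mono, 144 to 191 CPM in Early CMDM, 242 to 264 CPM in Late CMDM and 443 to 471 CPM in Resident-like, where it was highest without overlap (log2 0.84 against Late CMDM, adjusted p = 4.60e-05). The highest levels of Nfe2l2 and Hmox1 mRNA lay in different fractions, and a link between them was not tested. Spic, the factor needed for iron-recycling macrophages of the spleen, was at 28.03 to 41.6 CPM in Classical mono and at 7.95 to 18.0 CPM in the other fractions (log2 -1.67 in Early CMDM, adjusted p = 3.86e-06). In Early CMDM against Classical mono, leukocyte-gene scaling called 2 of the 55 wider genes lower and 51 higher (2.43 and 88.5% of all genes). Of other NRF2 targets, Nqo1 was higher in Late CMDM than in Resident-like (log2 of Resident-like against Late CMDM -1.34, adjusted p = 0.000745) and Txnrd1 was lower (0.72, adjusted p = 0.000779).

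Haemoglobin mRNA, as a mark of red blood cells and their precursors, was summed over 6 erythroid genes. It was 394 ± 188 CPM (SD, n = 3) in Classical mono, 178 ± 50.2 CPM in Early CMDM, 222 ± 83.8 CPM in Late CMDM and 1023 ± 466 CPM in Resident-like. Of the 5 genes tested, all were higher in Resident-like than in Late CMDM and in Early CMDM. The fraction with the most haemoglobin mRNA was thus not that with the most Cd163 or Hmox1, and its part in the levels of the members was not tested. Resident-like libraries also had 905 to 1202 CPM of 6 Langerhans and conventional dendritic cell genes, mostly Cd207, against 127 to 263 CPM elsewhere. Against Classical mono, 2 of these genes were called higher and 2 lower. Flt3 and Clec9a stood at 68.8 and 8.35 CPM in Classical mono and at 26.9 and 0.438 CPM in Resident-like.

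Likeness to each member was ranked by Pearson r of log2 CPM over the 12 libraries, among 9205 or 9206 genes with a mean of at least 10 CPM. Genes with symbols of the form Gm plus digits or ending in Rik were left out. The genes with the pattern most like each member were these. Tfrc was followed by Wwp1, a ubiquitin ligase gene, with r = 0.995, and by Folr2, the folate receptor beta of macrophages, with r = 0.991. Hmox1 was followed by Bin1 (r = 0.984) and Wfdc17 (r = 0.983), and Cd163 by Pdgfc, a growth factor gene (r = 0.984), and Tanc2 (r = 0.982). Blvra was followed by Cd68, a lysosomal protein gene of macrophages (r = 0.988), and Ctss, the protease cathepsin S (r = 0.984), whereas Blvrb was followed by Slco2b1 (r = 0.985) and Zfp704 (r = 0.983).

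Slc48a1 was followed by Adam22 (r = 0.978) and Adam15 (r = 0.970), and Slc40a1, whose counts were few, by Stxbp5 (r = 0.935) and Pgap1 (r = 0.935). Fth1 was followed by Rhog, a small GTPase gene (r = 0.987), and Smim24 (r = 0.985), and Slc11a1 by Slc8b1 (r = 0.979) and Ikzf1, a transcription factor gene of leukocytes (r = 0.978). The 2 genes most like Ftl1 were its own copies Ftl1-ps1 (r = 0.999) and Ftl2-ps (r = 0.998). The 12 points share 4 fractions and the same scaling, so that these values describe likeness between fraction means for the most part.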

How the data were processed

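The deposited table holds read counts per gene symbol for 12 libraries, without normalization. The authors used cutadapt 4.1 for trimming and Bowtie2 2.4.5 for mapping to GRCm38 reference RNA on 1 strand only, and added up the transcripts of each symbol, so that reads of near-identical transcripts can be split. All columns were used (0 unused). Fractions and replicate numbers were taken from the sample titles.

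Differences were tested with edgeR 4.0.16 (R 4.3.3), using TMM factors, filterByExpr by fraction and robust quasi-likelihood fits of all 12 libraries, with Benjamini-Hochberg adjustment over 22118 genes and a threshold of 0.05 in each of 6 comparisons. CPM use TMM-scaled library sizes, and log2 CPM a prior count of 2. Standard errors and 95% intervals come from the fold change and the F statistic. The steps were tested on simulated counts. Count floors (3 counts, 0.151 to 0.239 CPM) cover counting error only. The members and gene lists were chosen with earlier results of these data known. Named genes were all 10 members, the 2 tested genes of each wider list with the widest range of fraction means on the log2 CPM scale, and the 2 genes most like each member. Positions and lengths come from GENCODE M21 and promoters from RefSeq (GRCm38.p6), read with Biopython 1.88. The leukocyte scale used Ptprc, Coro1a, Cd53, Laptm5, Itgb2, Cd52, Fcer1g, Tyrobp, Lcp1 and Rac2. Alternatives were DESeq2 1.42.0, other scalings (RLE, library size, leukocyte genes, DEGES), other filters and thresholds, a replicate block, fits of 6 libraries, removal of genes over 1% of counts, ferritin copies added, and each library left out in turn.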

Additional observations from a re-analysis of the deposited data

How the results depend on the processing

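The numbers of members called stayed within 1.5 times those reported under DESeq2, RLE, library size, DEGES, both filters, the 6-library fits, the removal of abundant genes, a threshold of 0.01, the added ferritin copies and each library left out. Counting changes of at least 1 on the log2 scale, they were 5, 4, 6, 3, 4 and 3, and those of the wider lists 10, 2, 13, 8, 4 and 13, where 20, 11.9, 14.2, 10.4, 10.3 and 21.2% of all genes were called (Early CMDM against Classical mono, Late against Early CMDM, Late CMDM against Classical mono, Resident-like against Late CMDM, Classical mono and Early CMDM). With a threshold of 0.01 the wider lists had 16, 9 and 25 calls in the 3 comparisons of Resident-like. With 1 library left out they had 11 to 18 in Resident-like against Classical mono, the lowest without the first Classical mono library.

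Leukocyte-gene scaling called 3 members in Late against Early CMDM, and 53 and 40 wider genes in the first 2 comparisons. It reversed Blvra, Fth1 and Ftl1 (1.41, 0.43 and 1.06) in Early CMDM against Classical mono, Slc48a1, Blvra, Blvrb, Slc40a1, Fth1 and Slc11a1 (-0.34, -0.089, -0.095, -0.90, -0.28 and -0.19) in Late against Early CMDM, Fth1 (0.14) in Late CMDM against Classical mono, Fth1, Ftl1 and Slc11a1 (-0.23, -0.35 and -0.050) in Resident-like against Late CMDM, and Slc48a1, Hmox1, Blvra, Blvrb, Fth1, Ftl1 and Slc11a1 (-0.76, -0.86, -0.73, -1.03, -0.51, -0.20 and -0.24) in Resident-like against Early CMDM. This scaling moved all genes of a comparison nearly alike.

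Values close to 0 also changed sign. Slc40a1 in Late against Early CMDM ranged from -0.25 to 0.28 with 1 library left out, Slc48a1 in Resident-like against Late CMDM from -0.14 to 0.13, and Tfrc in Resident-like against Early CMDM from -0.13 to 0.030. Ftl1 in Resident-like against Late CMDM was -0.057 with library sizes only, and the log2 ratio of Fth1 to Ftl1 with copies added was -0.39 in Late CMDM and -0.29 in Resident-like. None of these differences between fractions was called, and the ratios were not tested.

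Deviations of same-numbered libraries correlated between -0.099 and 0.248, with 4 of 18 pairs over 0.1. Libraries of different numbers were not compared, so that this does not settle whether replicate numbers pair the samples. With a replicate block the members called were 8, 9, 10, 5, 8 and 9, as without it, and Slc48a1 in Resident-like against Late CMDM was 0.00756. The block raised the number of all genes called in every comparison, for example from 9924 to 10324 in Early CMDM against Classical mono.

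Depth limits Slc40a1 most, with 28 to 170 counts per library, and the number of 3 libraries per fraction limits all tests.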
